A study of Mus musculus with 7 samples.

Results

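Skeletal muscle transcripts were followed in epithelium cut from mouse lenses by laser capture. The 10 genes were Myh1, Myh2, Myh4, Mylpf, Acta1, Tnnc2, Tnnt3, Actn3, Des and Ckm, and every probe set with 1 of these symbols in the platform annotation was taken. This gave 10 of 18193 named genes and 15 of 45037 probe sets. Expression was compared between mice lacking SPARC (SPARC-null, KO) and WT (wild-type) littermates, both on a C57Bl/6 background and 28 days old, to learn what differs without SPARC, a matricellular glycoprotein that binds collagen. Both lenses of KO animal 1 (1L and 1R) and the left lenses of KO animals 4 and 7 (4L, 7L) were set against the left lenses of WT animals 2, 5 and 6 (2L, 5L, 6L). KO animal 7 was male and the other 5 animals were female. Each lens had its own Affymetrix array after its RNA had been amplified in 2 cycles. The animal was the unit of replication, with 1L and 1R combined into a mean, which leaves 3 animals a group. Precision is limited by that number of arrays. The extent of the Sparc deletion is not analysed here.

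Skeletal muscle contracts when myosin heavy chains, the motors of the thick filament, pull on actin in the thin filament. Calcium starts this by binding troponin on the thin filament. Adult fast fibres use the heavy chains of Myh4 (type IIB), Myh1 (type IIX) and Myh2 (type IIA), and in the eye such fibres form the extraocular muscles that move the globe. The lens itself holds no muscle.

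All 7 libraries carried both lens and muscle transcripts. Of 14 measured lens genes, 13 lay above the highest bacterial control in every lens, and the crystallin Cryaa gave 29668 to 38201 in KO lenses and 19271 to 37939.5 in WT lenses. That control, 45.5, is the highest signal among 27 probe sets for bacterial genes that mouse RNA does not hold, and it served as a gauge of background. Of the 10 muscle genes, 9 lay above it in every lens at their brightest probe set, and the exception was Des in WT lens 5L. Sparc itself was at 8.14 to 70.5 in KO lenses and 27370.5 to 49972 in WT lenses. The Gapdh ratio of 3' to 5' signal, which is lower where RNA is more intact, was 9.88 to 15.9 in KO lenses and 3.75 (2L), 9.06 (5L) and 15.9 (6L) in WT lenses. The added control BioB was lowest in 2L, at 848, against 1321 to 1907 in KO lenses and 1385 and 1615 in the other WT lenses.

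The promoters of the muscle genes are shown as background. Their part in how the transcripts varied between lenses was not tested. RefSeq sequence (GRCm38.p6) was matched for 8 of the 10 genes, and the 250 bases before the annotated start are printed 5' to 3' for 5 of them. In the first 3, capitals mark the longest run of bases that Myh1, Myh2 and Myh4 hold in common. In Acta1 they mark a CArG box, the motif bound by serum response factor, and in Ckm an E-box, CANNTG, the motif bound by MyoD and its relatives.
Myh1, chr11:67199852-67200101, plus strand: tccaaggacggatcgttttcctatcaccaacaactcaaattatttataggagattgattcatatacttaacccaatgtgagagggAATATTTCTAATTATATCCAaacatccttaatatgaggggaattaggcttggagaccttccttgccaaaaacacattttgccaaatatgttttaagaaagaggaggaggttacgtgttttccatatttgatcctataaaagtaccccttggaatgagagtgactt
Myh2, chr11:67170777-67171026, plus strand: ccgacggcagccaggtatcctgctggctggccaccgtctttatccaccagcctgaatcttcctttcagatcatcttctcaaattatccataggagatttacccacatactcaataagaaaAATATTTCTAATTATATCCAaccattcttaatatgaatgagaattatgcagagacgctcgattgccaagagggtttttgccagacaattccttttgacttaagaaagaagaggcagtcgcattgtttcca
Myh4, chr11:67237562-67237811, plus strand: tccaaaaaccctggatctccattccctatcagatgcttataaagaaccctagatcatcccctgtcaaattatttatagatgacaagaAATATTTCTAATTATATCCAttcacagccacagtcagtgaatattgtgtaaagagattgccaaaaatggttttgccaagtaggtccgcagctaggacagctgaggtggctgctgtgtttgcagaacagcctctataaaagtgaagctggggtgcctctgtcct
Acta1, chr8:123894776-123895025, minus strand: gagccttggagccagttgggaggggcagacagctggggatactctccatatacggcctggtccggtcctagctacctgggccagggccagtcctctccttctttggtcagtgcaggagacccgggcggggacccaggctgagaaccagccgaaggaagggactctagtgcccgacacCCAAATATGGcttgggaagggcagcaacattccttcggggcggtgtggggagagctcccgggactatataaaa
Ckm, chr7:19410844-19411093, plus strand: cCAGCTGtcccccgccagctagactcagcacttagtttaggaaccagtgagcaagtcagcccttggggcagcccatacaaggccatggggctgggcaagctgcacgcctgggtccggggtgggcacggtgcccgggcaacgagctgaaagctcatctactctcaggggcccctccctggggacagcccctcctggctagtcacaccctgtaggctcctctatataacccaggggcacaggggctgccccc
The shared run is 20 bases long and was found, on either strand, in 3 of 32851 windows of 250 bases, those of the 3 myosin genes. Because the run was picked from these same 3 windows, its presence in them was fixed in advance. It begins 165 bases before the start in Myh1, 130 in Myh2 and 163 in Myh4. A CArG box was found on either strand in Myh4 and Acta1, and in 1.47% of all windows. E-boxes were found in Myh4, Acta1, Tnnc2, Ckm, Des and Mylpf, and in 66.2% of all windows. A MEF2 site was found in Myh1 and Myh4, and in 2.92% of all windows, and in both genes it overlaps a TATAAA motif read on the other strand. TATAAA itself was found in Myh1, Myh4 and Acta1, and in 12.4% of all windows. A match of letters describes the sequence and says nothing of binding.

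**Figure D1:**
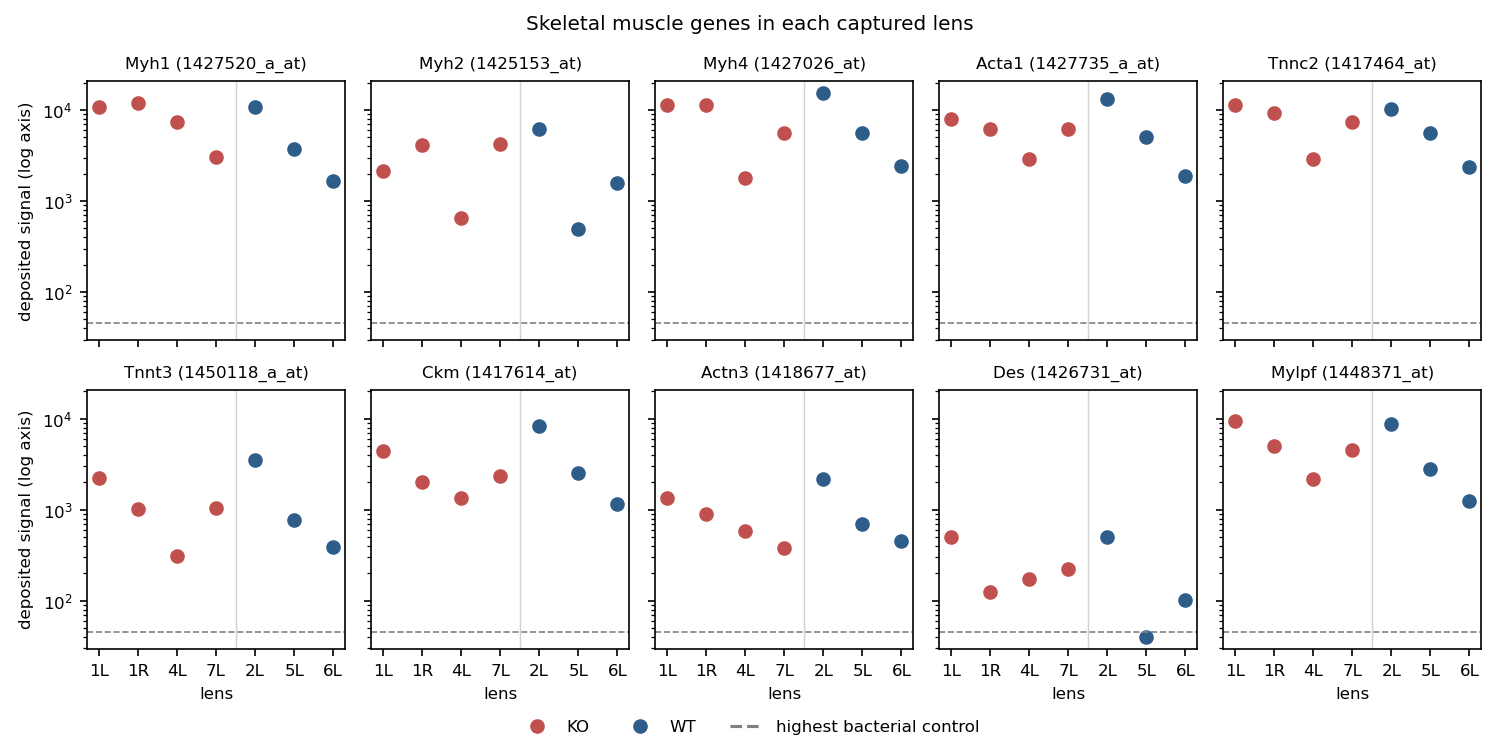
Deposited signal (log axis) of the brightest probe set of each of the 10 genes in each lens, KO lenses on the left and WT lenses on the right, with the highest bacterial control (45.5) as a dashed line. KO and WT lenses overlap at every gene, and WT lens 2L is highest or next to highest at 9 of the 10.

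Among the motors, Myh4, the fastest adult heavy chain, had signals of 11332 (1L), 11262 (1R), 1814 (4L) and 5608 (7L) in KO lenses, and 15294 (2L), 5659 (5L) and 2444 (6L) in WT lenses. The highest lens was WT and the lowest was KO, and each group spanned about the same range. Myh4 averaged 12.28 ± 1.31 in KO animals and 12.67 ± 1.57 in WT animals on the normalized log2 scale (SD, n = 3), a log2 difference of -0.39 (SE 0.78, limma adjusted p = 0.99988). Its other probe set was weak, at 224 (1L), 106 (1R), 6.41 (4L) and 55.0 (7L) in KO lenses and 98.7 (2L), 46.3 (5L) and 43.7 (6L) in WT lenses. At both probe sets 4L was the lowest of the 7 lenses.

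Myh1, the type IIX heavy chain, gave 10790.5 (1L), 11908 (1R), 7337 (4L) and 3060.4 (7L) in KO lenses, against 10776 (2L), 3769 (5L) and 1653 (6L) in WT lenses. Here 1R was highest and 6L lowest, and 4L lay well above 5L and 6L, unlike at Myh4. Mean log2 levels were 12.60 ± 0.95 for KO animals against 12.10 ± 1.52 for WT animals (SD, n = 3), and the log2 difference was 0.50 (SE 0.68, limma adjusted p = 0.99988). A further Myh1 probe set, which may share probes with other genes, had the same highest and lowest lens, at 3503 (7L) to 11416 (1R) in KO lenses and 2027 (6L) to 10356 (2L) in WT lenses. The remaining one stayed under that control in each lens, at 5.70 to 30.6 in KO lenses, against 6.78 to 10.4 in WT lenses. Since Myh1, Myh2 and Myh4 are close copies of each other, some probes may read more than 1 of them.

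Myh2, the type IIA heavy chain, was at 2154 (1L), 4132 (1R), 658 (4L) and 4216 (7L) in KO lenses and at 6221 (2L), 499 (5L) and 1580.4 (6L) in WT lenses. The KO lenses all lay within the WT range. Its log2 difference was 0.19 (SE 0.88, limma adjusted p = 0.99988), with means of 11.03 ± 1.41 for KO animals against 10.84 ± 1.85 for WT animals (SD, n = 3). Mylpf, the fast regulatory light chain that sits on the myosin neck, had 9375 (1L), 4985 (1R), 2202 (4L) and 4479.9 (7L) in KO lenses, against 8804 (2L), 2822 (5L) and 1242 (6L) in WT lenses. Its mean was 12.01 ± 0.81 for KO animals against 11.71 ± 1.53 for WT animals (SD, n = 3), a log2 difference of 0.30 (SE 0.66, limma adjusted p = 0.99988). The groups overlapped at Mylpf as at the heavy chains.

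In the thin filament, Acta1, skeletal alpha-actin, gave 7884 (1L), 6253 (1R), 2890.0 (4L) and 6165 (7L) in KO lenses and 13092 (2L), 5041 (5L) and 1878 (6L) in WT lenses. Tnnc2, the calcium sensor of fast fibres, gave 11227 (1L), 9332 (1R), 2884 (4L) and 7474 (7L) in KO lenses and 10256 (2L), 5551 (5L) and 2370.2 (6L) in WT lenses. Tnnt3, the fast troponin that ties the complex to tropomyosin, gave 2237 (1L), 1029.7 (1R), 307 (4L) and 1037 (7L) in KO lenses and 3496 (2L), 773 (5L) and 394 (6L) in WT lenses. All 3 genes were high in 1L and 2L and low in 4L and 6L, and KO and WT lenses overlapped. The log2 difference was -0.09 (SE 0.67) for Acta1, 0.19 (SE 0.60) for Tnnc2 and -0.41 (SE 0.75) for Tnnt3, each with a limma adjusted p of 0.99988.

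Actn3, which crosslinks actin at the Z-disc of fast fibres, was at 1346 (1L), 898 (1R), 581 (4L) and 378 (7L) in KO lenses and at 2154 (2L), 699.6 (5L) and 457 (6L) in WT lenses. It differed from the filament genes in having its lowest lens in 7L. Des, the intermediate filament that links Z-discs and is also made by smooth muscle, was at 505 (1L), 126 (1R), 172 (4L) and 224 (7L) in KO lenses and at 499.6 (2L), 39.6 (5L) and 101 (6L) in WT lenses. Its second probe set exceeded the bacterial controls in 1 lens, at 4.46 to 38.6 in KO lenses and 9.49 (5L) and 46.5 (6L) in WT lenses, with 2L the lowest. Ckm, muscle creatine kinase, which buffers ATP, was at 4411 (1L), 2021 (1R), 1348 (4L) and 2361 (7L) in KO lenses and at 8334 (2L), 2554 (5L) and 1161 (6L) in WT lenses, so that KO lenses lay within the WT range. The log2 difference was -0.51 (SE 0.53) for Actn3, 0.62 (SE 0.65) for Des and -0.54 (SE 0.63) for Ckm, each with a limma adjusted p of 0.99988. The weaker Ckm probe set ran from 70.0 to 157 in KO and from 70.6 to 193 in WT lenses.

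No muscle gene differed detectably between KO and WT animals. In limma, 0 of the 15 probe sets had an adjusted p under 0.05, where 3 of all 45037 probe sets (0.00666%, with 0.00222% higher and 0.00444% lower in KO) did. The 2 called lower in KO were probe sets of Sparc itself. An unadjusted p under 0.05 was reached by 0 of the 15, against 4.06% of all probe sets. KO and WT lenses failed to overlap at 0 of the 15 probe sets, against 5.33% of all (2.56% higher and 2.76% lower in KO). By the brightest probe set, the KO mean was above the WT mean at 5 genes and below it at 5. The median of these 10 log2 differences was 0.05, and that of all probe sets -0.01. At 9 of the 10 genes the difference was smaller than the SD between animals of each group, and Des was the exception. With 3 animals a group the data leave wide limits, since the 95% confidence intervals of the 10 log2 differences reached down to -2.13 (Myh4) and up to 2.16 (Myh2).

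The sign of these small differences turned when single animals were left out. Without WT animal 2 the median log2 difference over the 10 genes was 0.77, and without WT animal 6 it was -0.63. Without KO animal 1, KO animal 4, KO animal 7 and WT animal 5 it was -0.24, 0.37, -0.21 and -0.35, and 0 member probe sets passed the test in any of these 6 fits.

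**Figure D2:**
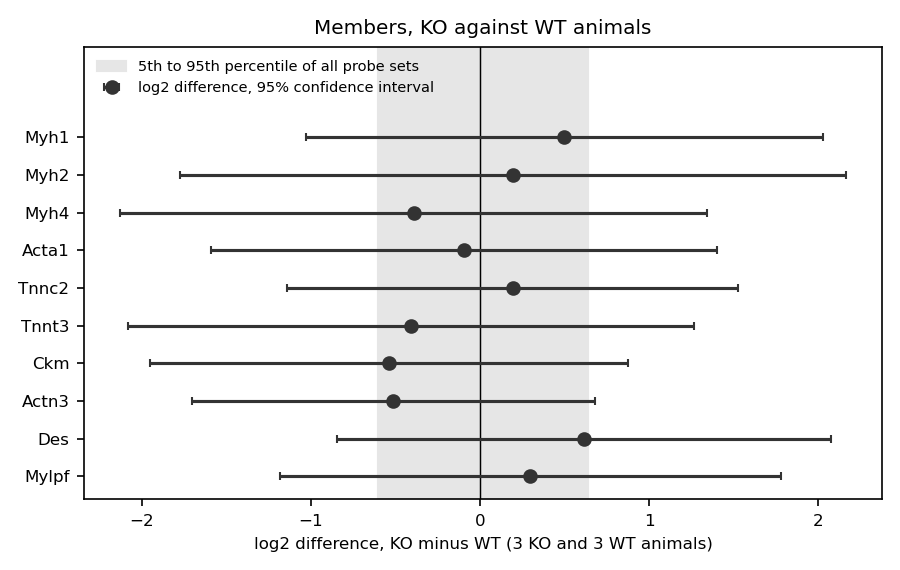
Log2 difference between KO and WT animals (horizontal axis) for each of the 10 genes, with 95% confidence intervals as bars and the 5th to 95th percentile of all probe sets (-0.60 to 0.64) in grey. Every interval spans 0.

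What varied was the lens. The highest signal was 4.74 times (Tnnc2) to 12.7 times (Des) the lowest at the 10 genes, with a median of 7.38 times. That median was 3.13 times over all probe sets, and 2.15 times over the 23129 above the highest bacterial control in every lens. Without WT lens 2L the range was 3.56 times (Actn3) to 12.7 times (Des). At Des both ratios rest on 5L, whose signal of 39.6 lay under the highest bacterial control. The next highest ratio without 2L was 8.45 times (Myh2). Both ends of the order lay in the WT group at Myh2, Acta1 and Ckm. The signals of the 10 genes together came to 61262 (1L), 51947 (1R), 20194 (4L) and 35003 (7L) in KO lenses, and to 78926 (2L), 27407 (5L) and 13281 (6L) in WT lenses. The sum in the highest lens was therefore 5.94 times that in the lowest, and both were WT. In such dissected tissue, fewer cells of a type and less RNA per cell cannot be told apart.

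By deposited signal, 2L was the highest lens at 6 of the 10 genes, 1L at 3 and 1R at 1. The lowest lens was 6L at 5 genes, 4L and 5L at 2 each and 7L at 1. After quantile normalization 2L was highest at 9 genes, the exception being Des, and the lowest lens was again 6L at 5 genes. The lens 2L also had the lowest Gapdh ratio and the lowest BioB signal. The lens 1R, with the highest Gapdh ratio (15.9), had the third highest sum of the 10 genes, and 6L, at the same ratio, had the lowest. The same ratio for actin was 19.1 (1L), 15.1 (1R), 15.0 (4L) and 13.8 (7L) in KO lenses and 5.89 (2L), 16.4 (5L) and 23.8 (6L) in WT lenses. It was thus lowest in the lens with the highest sum and highest in the lens with the lowest sum. The part of RNA integrity in the order of the lenses was not tested.

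The balance between the myosin genes also differed from lens to lens, a comparison chosen after the values were seen. The ratio of Myh1 to Myh4 signal was 0.952 (1L), 1.06 (1R), 4.05 (4L) and 0.546 (7L) in KO lenses and 0.705 (2L), 0.666 (5L) and 0.676 (6L) in WT lenses. The 3 WT lenses lay close together although their Myh4 signals differed 6.26-fold, and 4L stood apart. With the other bright Myh1 probe set the ratio was 3.95 in 4L, 0.625 to 1.01 in the other KO lenses and 0.677 (2L) and 0.665 (5L) in WT lenses, with 6L above those. The ratio of Myh2 to Myh4 was 0.190 (1L), 0.367 (1R), 0.363 (4L) and 0.752 (7L) in KO lenses and 0.407 (2L), 0.0882 (5L) and 0.647 (6L) in WT lenses. That ratio spread across both groups with no lens apart.

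Myh3, the embryonic heavy chain that developing and extraocular fibres use, was not among the 10 genes but had the widest left-right difference of the named muscle genes. Its signal was 222 (1L), 5707 (1R), 279 (4L) and 11309.7 (7L) in KO lenses and 8893 (2L), 2532 (5L) and 1012 (6L) in WT lenses. In animal 1 it was 25.7 times as high in the right lens as in the left, while Myh4 was 0.994 times and Myh1 1.10 times as high there. Its log2 difference between KO and WT animals was -0.91 (SE 1.20, limma adjusted p = 0.99988).

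**Figure D3:**
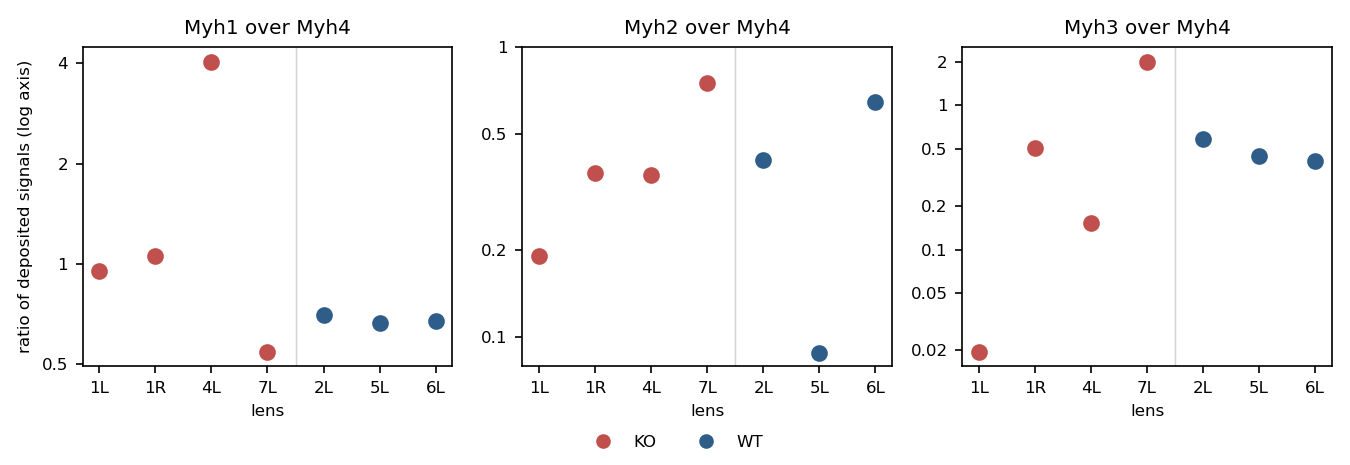
Ratio of the deposited signals of Myh1, Myh2 and Myh3 to that of Myh4 in each lens (log axes), KO lenses on the left and WT lenses on the right. Myh1 over Myh4 stands at 4.05 in 4L and at 0.546 to 1.06 in the other 6 lenses, and Myh3 over Myh4 runs from 0.0196 in 1L to 2.02 in 7L.

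In the left and right lens of animal 1, several of the 10 genes had unequal signals. Des was 4.00 times, Ckm 2.18 times, Tnnt3 2.17 times and Mylpf 1.88 times as high in 1L as in 1R, and Acta1, Tnnc2 and Myh4 were 1.26, 1.20 and 1.01 times as high, with Actn3 above by 0.60 on the log2 scale. In the other direction, Myh2 was 1.92 times and Myh1 1.10 times as high in 1R. The median size of the left-right difference was 0.71 on the log2 scale for the 10 genes and 0.42 for all probe sets. No other animal gave both lenses, so left and right could not be compared elsewhere.

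**Figure D4:**
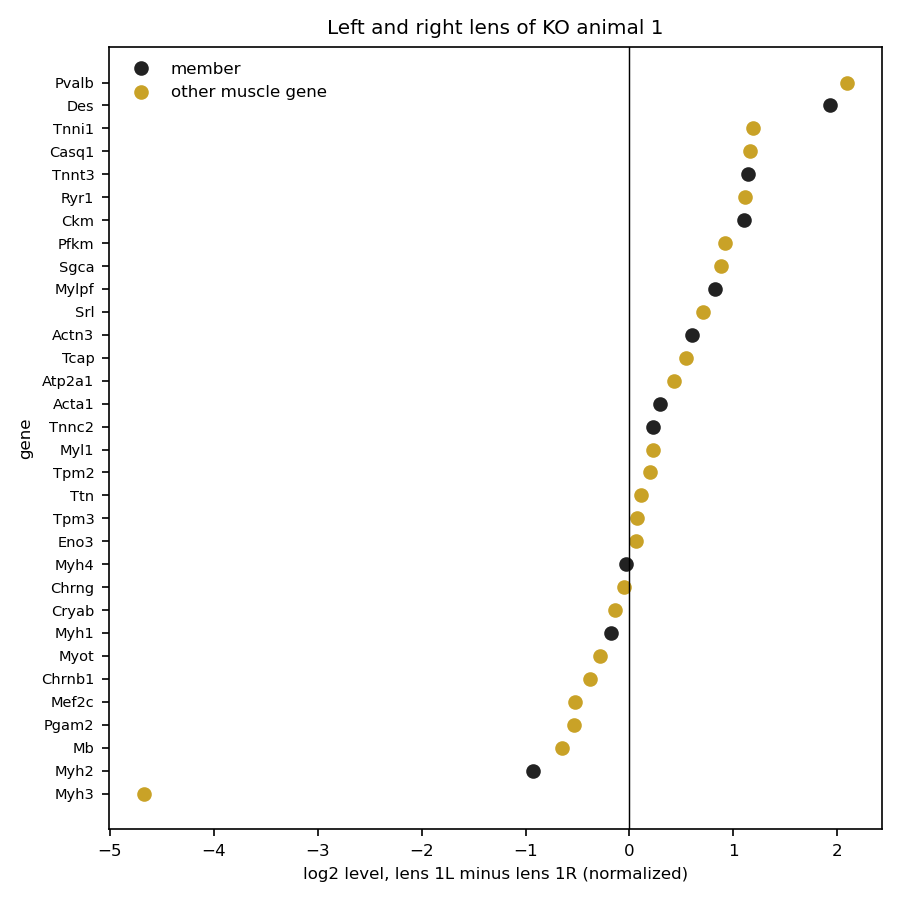
Normalized log2 level in lens 1L minus lens 1R of KO animal 1 for the 10 genes (black) and the muscle genes named for their level or their likeness to the 10 (yellow). Among the genes shown, Des (1.93) and Pvalb (2.09) lie furthest towards the left lens, and Myh3 (-4.67) furthest towards the right. Muscle genes named for other reasons, such as Myh7 (2.28), are not shown.

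A wider set of 87 skeletal muscle genes, of which 82 were measured, gave the same picture for genotype. None passed the test in limma (0.00666% of all probe sets did), 40 had higher and 42 lower values in KO, and the median log2 difference was -0.04. At an unadjusted p under 0.05 there were 2 of 82 (4.06% of all probe sets), Pygm and Chrne, both named after their values were seen. Pygm, muscle glycogen phosphorylase, was at 547 (1L), 204 (1R), 304 (4L) and 441 (7L) in KO lenses and 1099 (2L), 497 (5L) and 485 (6L) in WT lenses, and 1L lay within the WT range. Chrne, the adult subunit of the muscle acetylcholine receptor, was also the single gene of the 82 whose lenses did not overlap (5.33% of all probe sets), at 8.49 to 28.8 in KO lenses, against 38.1 to 60.7 in WT lenses, with 2L and every KO lens under the highest bacterial control. Its log2 difference was -1.09 (SE 0.32, limma adjusted p = 0.99988, unadjusted p = 0.00755). Of the 82 genes, 56 were above the highest bacterial control in every lens, 47 were highest in 2L and 29 were lowest in 6L. Over all probe sets 12.4% were highest in 2L and 13.6% lowest in 6L. Among probe sets above that control in every lens, the shares were 17.1% and 13.7%.

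Of 17 other filament genes, 0 passed the test, 8 had higher and 9 lower values in KO, and the median was -0.06. Myl1, the fast essential light chain, spanned 1883 to 7117 in KO lenses and 1338 to 13747 in WT lenses. Tpm2 and Tpm3, tropomyosins that many cell types make, varied little, at 3803 to 4717 in KO lenses, against 3471 to 4138 in WT lenses for Tpm2, and 3459 to 5287 in KO lenses, against 2947 to 3873 in WT lenses for Tpm3. Tpm1, another tropomyosin, varied more, at 1934 (1L), 993 (1R), 404 (4L) and 1051 (7L) in KO lenses and 3175 (2L), 1081 (5L) and 651 (6L) in WT lenses. Like most of the 10 genes, Tpm1 was high in 2L and 1L and low in 6L and 4L.

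Of 18 genes of the Z-disc and the giant proteins, 0 passed the test, 13 had higher and 5 lower values, and the median was 0.10. Ttn, which encodes titin, the spring of the sarcomere, spanned 331 to 1897 in KO lenses and 182 to 4172 in WT lenses. Tcap, the cap that binds titin at the Z-disc, spanned 525 to 1637 in KO lenses and 317 to 4059 in WT lenses, and Myot, the Z-disc protein myotilin, spanned 336 to 2014 in KO lenses, against 280.1 to 3055 in WT lenses. Cryab, which is also a lens crystallin, spanned 38805 to 51883 in KO lenses and 28252 to 48160.4 in WT lenses and varied far less. Its signal was the highest on the array in 4L and close to the highest in 2L (28252 against 28328). Whether the top of the signal scale narrowed its spread was not tested.

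Of 16 genes of calcium handling and excitation, 0 passed the test, 7 had higher and 9 lower values, and the median was -0.09. Pvalb, the calcium buffer parvalbumin of fast fibres, was at 5326 (1L), 1240.2 (1R), 762 (4L) and 540.3 (7L) in KO lenses and 3981 (2L), 1125 (5L) and 389 (6L) in WT lenses. It was thus highest in 1L and lowest in 6L. Atp2a1, the calcium pump of fast fibres, spanned 1517 to 6317 in KO lenses and 1107 to 10125 in WT lenses, and Srl, sarcalumenin, spanned 494 to 1863 in KO lenses, against 284 to 2480.1 in WT lenses. Casq1, the calcium store protein calsequestrin, spanned 2412 to 8071 in KO lenses and 4479 to 6152 in WT lenses, with KO lenses at both ends.

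Of 13 genes of energy supply, 0 passed the test, 1 had a higher value and 12 lower, and the median was -0.22. Over all probe sets 51.6% had lower values in KO. WT lens 2L was highest at 9 of the 13 genes, so their differences are not separate observations. Mb, myoglobin, the oxygen store of oxidative fibres, was at 6679 (1L), 10349 (1R), 2244 (4L) and 13748 (7L) in KO lenses and 14711 (2L), 6384 (5L) and 3152 (6L) in WT lenses. Like Myh2, it was high in 2L and 7L. Eno3 (muscle enolase) and Pfkm (muscle phosphofructokinase) were at 3710.2 to 5969 and 1136 to 2466 in KO lenses, and at 4902 to 8396 and 1269 to 3159 in WT lenses. Pgam2, a phosphoglycerate mutase, spanned 5112 to 8349.7 in KO lenses and 6850.2 to 8008 in WT lenses.

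Of 18 receptors and myogenic factors, 0 passed the test, 11 had higher and 7 lower values, and the median was 0.13. Mef2c, a transcription factor of muscle and other tissues, spanned 476 to 1851 in KO lenses and 290.4 to 2197 in WT lenses. Chrnb1, a subunit of the acetylcholine receptor, spanned 559.9 to 897 in KO lenses and 674 to 1112 in WT lenses, and Chrng, its fetal subunit, spanned 149.6 to 238 in KO lenses, against 174 to 231 in WT lenses. Sgca, alpha-sarcoglycan of the muscle membrane, spanned 131 to 249 in KO lenses and 125 to 472 in WT lenses. Neither Pax7, the marker of muscle stem cells, nor Chrnd, another receptor subunit, exceeded the bacterial controls in any lens.

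The genes whose profile over the 7 lenses was most like the mean profile of the 10 were Gosr1, Gm13778, Srl, Plgrkt, Mettl21e, Slc41a1, Mtfmt, Ryr1, Ttn and Tnni1. Pearson's r was 0.97 to 0.99 and Spearman's rho 0.96 to 1.00 over the 7 lenses, 2 of which come from the same animal. Without 2L Pearson's r was 0.94 to 0.98. Of the 10, Gm13778 exceeded the highest bacterial control only in 2L (49.5), and Mettl21e only in 1L (66.4) and 2L (113). The profiles of these genes therefore lie mostly at background. Ryr1 (the calcium release channel), Ttn, Srl and Tnni1 (slow troponin I) belong to the wider muscle set, and the 10 were taken from 15552 genes by r alone. Gosr1 spanned 702 to 1171 in KO lenses and 536 to 1714 in WT lenses, and Tnni1 spanned 87.1 to 584 in KO lenses, against 30.2 to 1878 in WT lenses. The median r was 0.75 over the 80 genes of the wider set that reached the control in at least 1 lens, and -0.06 over all 15552 genes, and 34 of the 80 (42.5%) had an r over 0.8, against 2.20% of all. These values describe 7 lenses and have no test.

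Of the genes that mark other tissues, 0 passed the test in any list. The list of 12 smooth muscle genes includes Des, which is also a member. Its summed signal was 17299.9 to 19133 in KO lenses, against 12813 to 19405 in WT lenses, with 2L lowest. Of that sum Acta2 gave 13955 to 15956 in KO lenses, against 7796 (2L) to 17438 (6L) in WT lenses. The mean normalized log2 level of the list was instead highest in 7L (0.44 above its mean over the 7 lenses) and next highest in 2L (0.28). Over the list the median log2 difference was 0.22. Above the bacterial controls in every lens lay 7 of the 12 genes. These included Myh11, the smooth muscle myosin, at 67.9 to 378 in KO lenses and 104 to 342 in WT lenses, and Tagln, transgelin, at 87.9 to 377 in KO lenses and 71.4 to 221 in WT lenses. The markers Cnn1 and Lmod1 exceeded the bacterial controls in 0 of 7 lenses. The 8 cardiac genes summed to 410 to 717 in KO lenses, against 331 to 676 in WT lenses, with a median of 0.06. Of these 8, Pln, phospholamban, lay above the bacterial controls in every lens, at 79.1 to 326 in KO lenses and 49.8 to 383 in WT lenses, while Tnni3 and Nppa were no higher than those controls in any lens and the other 5 exceeded them in some lenses. The 9 rod genes summed to 62014 to 82531 in KO lenses, against 49231.5 to 92110 in WT lenses, highest in 5L, and the median log2 difference was -0.11. The 10 pigment cell genes summed to 16419 to 45072 in KO lenses, against 9471 to 25579 in WT lenses, highest in 7L, with a median of 0.53. The 8 surface epithelium genes summed to 1713 to 16580 in KO lenses, against 11882 to 17696 in WT lenses, with 3 of the 8 genes highest in 2L and 5 in 5L. All 8 had lower values in KO, where 51.6% of all probe sets did, with a median of -1.38 (lowest limma adjusted p = 0.918). The 10 stromal genes summed to 26193 to 39412 in KO lenses, against 28153 to 49470 in WT lenses, with a median of -0.22. The 5 nerve and Schwann cell genes summed to 9316 to 21194 in KO lenses, against 11131 to 13885 in WT lenses, with a median of 0.12. The lens genes summed to 263435 to 333987 in KO lenses, against 200046 (2L) to 327263 (5L) in WT lenses, with a median of -0.02. The highest signal on the array was 28328 in 2L, against 42153 (1L) to 53056 (1R) in the other lenses. After normalization the mean log2 level of the lens list was highest in 2L (0.23 above its mean over the 7 lenses). The part of these tissues in the order of the muscle genes was not tested.

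**Figure D5:**
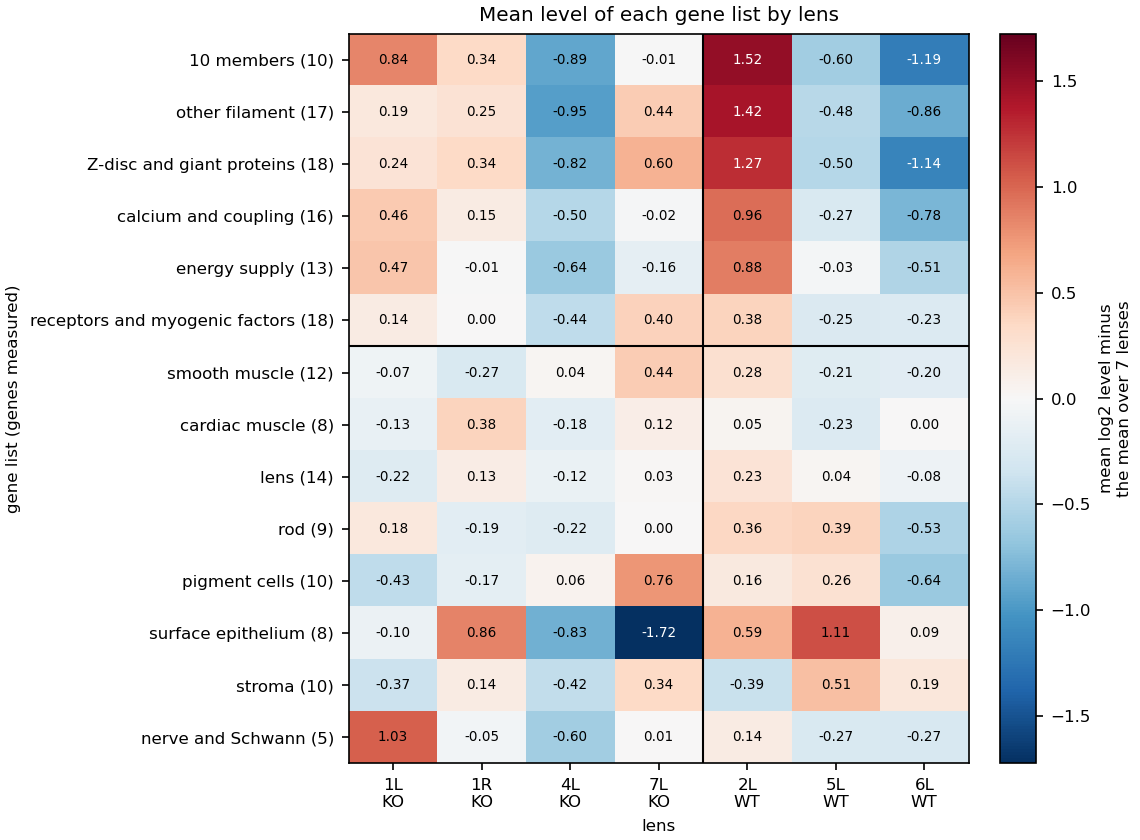
Mean normalized log2 level of each gene list in each lens (columns, KO lenses left of WT lenses) minus its mean over the 7 lenses, with muscle lists above the line and lists of other tissues below it. The 10 genes run from 1.52 in 2L to -1.19 in 6L, while pigment cell genes peak in 7L (0.76) and surface epithelium genes in 5L (1.11). Des counts both among the 10 genes and in the smooth muscle list.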

How the data were processed

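Per the labels' protocols, epithelium was captured by laser from stained frozen sections, and column-purified RNA went through 2 cycles of amplification before biotin labelling. The authors deposited 1 linear intensity (signal) per probe set and lens. Each array had the same mean after 2% was trimmed at each end (500.003 or 500.004), and the sources used here do not name the summary software. Such amplification favours 3' ends, so probe sets lying far upstream can read low.

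All 64 control probe sets were dropped, leaving 45037 of 45101, and weak signals were not filtered. The log2 of signal + 16 was taken and quantile normalized, and lenses of an animal were averaged on the log2 scale. A log2 difference therefore understates changes of weak probe sets. KO and WT animals, all of a single litter, were compared with limma 3.58.1 in R 4.3.3, with an intensity trend. Tests were two-sided, p-values were Benjamini-Hochberg adjusted across the whole array, and the threshold was 0.05. The code was tested on simulated data. The platform annotation gave 1 gene symbol to 34945 probe sets, several to 932 and none to 9160. A gene is represented by its brightest probe set. The files name no genome build, and promoter coordinates are those of RefSeq.

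The members and all lists were chosen with earlier results of these data known. Named genes were all members, up to 4 genes of each muscle list with the highest mean signal, and the 10 genes most like the members by Pearson's r. Others are named where the text says so or where their level stands beside a result. Some genes of the lists are not reported here. Alternatives were other pseudocounts (1 and 64), median centring, the signals as deposited, a filter on low values, either lens of KO animal 1, lenses as samples, no intensity trend, array weights, averaging the probe sets of each gene, Spearman's rho and leaving out each animal.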

Additional observations from a re-analysis of the deposited data

Results flagged for a closer look

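Among the 4 KO lenses, 1 lens stood apart at 2 of 43 named probe sets on the normalized log2 scale: its gap to the nearest lens, as a share of the range of the group, was above Dixon's 95% critical value. Chance flags about 1 in 20 groups. At the weak Myh1 probe set this share was 0.933, with 1R at a deposited signal of 30.6 and the other KO lenses at 5.70 to 6.99, all under the highest bacterial control. At Myl1 it was 0.845, with 4L at 1883 and the other KO lenses at 5876 to 7117.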

How the results depend on the processing

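No member passed the threshold under any of 18 alternatives (lowest adjusted p 0.704 in limma), and 157 of 180 gene differences kept their sign. Leaving out 1 animal at a time gave log2 differences (KO minus WT) with these ranges: Acta1 -0.85 to 0.74, Actn3 -0.96 to 0.093, Ckm -1.22 to 0.30, Des -0.075 to 1.46, Myh1 -0.19 to 1.31, Myh2 -0.69 to 1.16, Myh4 -1.10 to 0.45, Mylpf -0.39 to 1.12, Tnnc2 -0.41 to 0.80, Tnnt3 -1.07 to 0.46. With array weights the sign turned at Acta1 (0.22), Actn3 (0.0014), Myh4 (0.24) and Tnnt3 (0.16). Acta1 also turned with the signals as deposited (0.0033) and with 7 lenses as independent samples (0.020). The cause was not tested. WT lens 2L was highest at 9 members after normalization, at 8 with median centring and at 6 by deposited signal. By Spearman's rho, 4 of the 10 genes most like the members remained. A random block for the animal was planned and not run, as its correlation could not be estimated from the single animal with 2 lenses, and a correlation set to 0.5 was chosen after seeing the data. With 3 animals a group, the data do not exclude differences inside the 95% confidence intervals.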

Other observations

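Some muscle genes outside the 10, named here after their values were seen, followed Myh3 rather than Myh4. Myh8, the perinatal heavy chain, was at 42.0 (1L), 248 (1R), 10.9 (4L) and 903 (7L) in KO lenses and at 192 (2L), 52.6 (5L) and 10.3 (6L) in WT lenses. Sln, sarcolipin, which restrains the calcium pump, was at 56.8 (1L), 521 (1R), 71.6 (4L) and 1042 (7L) in KO lenses and at 1212 (2L), 127 (5L) and 109 (6L) in WT lenses. Both were far higher in 1R than in 1L, and high in 7L and 2L.

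Myh7, the slow heavy chain, was at 703 (1L), 141 (1R), 117 (4L) and 92.2 (7L) in KO lenses and at 1381 (2L), 30.0 (5L) and 44.3 (6L) in WT lenses. It was above the highest bacterial control in every KO lens and in 1 WT lens, yet its highest value was in that WT lens, 2L. Mbp, myelin basic protein, was at 4723 in 1L, 4.05 to 186 in the other KO lenses and 18.2 to 324 in WT lenses.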
